A study of Rattus norvegicus with 26 samples.

Results

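The endothelium is the single layer of cells that lines the aorta, and 9 rat genes that build its junctions or mark its identity were followed: Cldn5, Esam, Pecam1, Cdh5, Sox18, Kdr, Vwf, Eng and Emcn. The members were chosen by name, and a probe was taken for a gene when its RefSeq accession belonged to that gene. Of the 9 genes, 8 had a probe, 1 probe each with 1 spot, among 15168 genes with a symbol, and all 8 passed the filter on dim probes and were tested. No probe matched Vwf, the gene of von Willebrand factor, and it was not analysed here.

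RNA came from thoracic aortas of male rats of a spontaneously hypertensive strain, which inherits high blood pressure, and the sources used here do not give the animals' age. All groups share that strain and were dosed by mouth for 4 weeks, with collection at day 28. Controls received saline at 7.5 mL per kg (8 arrays), and the treated rats received the herbal preparation SXC (Songling Xuemaikang capsule) at 236.25 mg per kg (low dose, 6 arrays) or 708.75 mg per kg (high dose, 6 arrays), or valsartan, an angiotensin receptor blocker, at 21.6 mg per kg (6 arrays). No rats with normal blood pressure are among the groups, and the series text counts 8 valsartan rats where 6 arrays were analysed here.

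Endothelial cells are held together by tight junctions, whose claudins and adhesion molecules seal the gap between cells, and by adherens junctions, whose cadherin anchors the cells to each other. Their identity is kept by transcription factors of the ETS, SOX and GATA families, and their growth and survival run through receptors for VEGF and for BMP and TGF-beta ligands. The genes followed cover each of these roles: Cldn5, Esam, Pecam1 and Cdh5 code for junction proteins, Sox18 for a transcription factor, Kdr and Eng for receptors, and Emcn for a sialomucin of the cell surface.

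RefSeq (assembly GRCr8) gave a promoter window, 250 bases before to 50 bases after the gene's start, for 4 of the 9 members, namely Cldn5, Kdr, Eng and Emcn. The windows of Cldn5 (chr11:95718549-95718848, minus strand), Emcn (chr2:228564289-228564588, plus strand) and Kdr (chr14:32571813-32572112, plus strand) are shown because the levels of these 3 genes rose and fell together across the saline arrays, while only Cldn5 and Emcn fell with treatment. Capitals mark the core of the ETS motif, GGAA, on either strand.
Cldn5: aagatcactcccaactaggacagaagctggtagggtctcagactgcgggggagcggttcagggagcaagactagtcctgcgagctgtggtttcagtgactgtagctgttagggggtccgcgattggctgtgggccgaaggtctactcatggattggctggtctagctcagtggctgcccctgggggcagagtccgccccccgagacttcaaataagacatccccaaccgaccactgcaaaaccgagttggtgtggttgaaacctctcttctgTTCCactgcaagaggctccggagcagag
Emcn: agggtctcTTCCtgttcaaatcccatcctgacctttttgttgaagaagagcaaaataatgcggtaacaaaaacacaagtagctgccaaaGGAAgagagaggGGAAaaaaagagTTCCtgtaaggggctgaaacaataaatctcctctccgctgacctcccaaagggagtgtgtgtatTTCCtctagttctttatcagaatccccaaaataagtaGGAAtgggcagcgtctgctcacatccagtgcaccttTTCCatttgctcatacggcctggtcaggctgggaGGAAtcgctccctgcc
Kdr: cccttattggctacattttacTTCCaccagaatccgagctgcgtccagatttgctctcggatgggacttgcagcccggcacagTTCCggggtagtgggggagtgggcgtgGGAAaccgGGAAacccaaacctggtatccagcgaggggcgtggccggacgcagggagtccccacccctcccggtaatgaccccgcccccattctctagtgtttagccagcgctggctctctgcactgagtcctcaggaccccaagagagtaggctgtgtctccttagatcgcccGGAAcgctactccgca
The ETS core was found 1 time in the Cldn5 window, 8 times in the Emcn window and 5 times in the Kdr window. At least 1 such match is held by 95.8% of the 33469 promoter windows of the same length, with a median of 3. The SOX core ACAAT occurred 1 time in the Emcn window, which no ETS match overlaps, and is held by 33.7% of all windows. The KLF box CCACCC occurred 1 time in the Kdr window which no ETS match overlaps, and is held by 29.4% of all windows. The GATA core AGATAA and the TATA box TATAAA, held by 11.6% and 14.2% of windows, were in none of the 3 on either strand. These are matches of letters in a window, not sites.

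Levels are log2 intensities relative to the 75th percentile of the same array, so a difference of 1 is a 2-fold change, and levels of different genes were not compared. A probe is well above background on an array where the scanner software says so. This held for 67.3% to 76.2% of probes in saline and 70% to 77% with the low dose, but for 28.7% to 79.3% with the high dose and 32.4% to 56.5% with valsartan. The detector gain was lower for 10 arrays, high-dose arrays 3 to 6 and all of valsartan, than for the rest. All saline arrays were scanned on a day of their own, 82 days after the last treated array, so against saline the effects of scan day and of treatment cannot be told apart. Each aorta was extracted separately, per the labels.

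Whether the saline arrays are 8 separate samples is not clear. Measured from the mean of their scan time, arrays 3 and 7, 1 and 5, and 2 and 6 deviated together over 23697 probes (r = 0.87, 0.71 and 0.66, a description over probes of the same 8 arrays). Arrays 4 and 6, and 4 and 5, came next (r = 0.56 and 0.46). The pairing depends on this centring. Measured from the mean of all 8 saline arrays, the first 3 pairs had r = 0.68, 0.24 and 0.20, and arrays 2 and 4 had 0.65. Kdr shows the first 3 pairs within these genes: its levels were 0.43 and 0.50 on arrays 1 and 5, 1.55 and 1.62 on arrays 2 and 6, and 4.48 and 4.46 on arrays 3 and 7. With saline taken as the 3 averages of these pairs, without arrays 4 and 8, the number of genes called against saline was as reported for the high dose and valsartan and fell to 4 for the low dose.

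Genes of other cells moved as well, and their part in the results below was not tested. Smooth muscle markers, the main cell of the aortic wall, had a summed level (the mean over 9 genes) of 1.93 to 3.64 on the saline arrays, and 2.58 to 3.41 over all treated arrays. Red cell markers lay at 0.14 to 3.64 in saline, and at -2.73 to -1.62, -3.06 to -0.16 and -2.26 to -1.09 with the low dose, the high dose and valsartan. Macrophage markers lay at -1.06 to 0.02 in saline and at -2.80 to -2.41, -2.80 to -2.41 and -3.27 to -2.78 in the same order. White fat markers spread from -0.93 to 3.04 in saline and lay at -2.08 to -0.39, -2.18 to -0.40 and -1.97 to -1.34. Of the tested markers, 5 of 6 red cell, 9 of 10 macrophage, 6 of 7 white fat, 2 of 6 platelet, 3 of 5 lymphatic endothelial and 3 of 6 adventitial fibroblast genes were lower with the high dose, and 0 of these were higher. The counts lower, in that order, were 6, 9, 6, 2, 3 and 3 with the low dose and 5, 9, 6, 3, 3 and 4 with valsartan, again with 0 higher, while 3 of 9 smooth muscle genes were higher in each comparison and 3, 2 and 3 lower. Of all tested probes, 35.7% were higher and 21.4% lower with the high dose, 22.5% and 17.1% with the low dose, and 33.2% and 25.2% with valsartan. Adventitial fibroblast markers lay at 2.89 to 4.45 in saline and 1.83 to 2.77 over the treated arrays, and lymphatic markers at -2.07 to -1.48 and -3.49 to -2.20. With valsartan the macrophage genes Mrc1, C1qc and Cd163, the fat genes Cidec and Lep and the red cell gene Slc4a1 were not well above background. Nor were the platelet genes Ppbp, Gp9, Treml1, Itgb3 and Gp1ba. Prox1, which defines lymphatic endothelium, was not well above background in any group.

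Against saline, 4 of the 8 genes fell in every treated group and 2 rose in every treated group. The tight-junction gene Cldn5, the adhesion genes Esam and Pecam1 and the sialomucin gene Emcn were lower with the low dose, the high dose and valsartan. Cdh5, which codes for VE-cadherin, and the transcription factor gene Sox18 were higher in all 3. Eng was called higher with the high dose, and Kdr passed no test. Calls were common on these arrays: with the high dose, the low dose and valsartan, 35.7%, 22.5% and 33.2% of all tested probes were called higher. The shares called lower were 21.4%, 17.1% and 25.2%. The number of these genes called higher was near or below the share over all probes in each comparison. The 3 comparisons use the same 8 saline arrays, so they are not independent of each other. How many of all probes were called alike in all 3, or lay wholly outside the saline range, was not counted. Because whole aorta was measured, fewer endothelial cells and less RNA per endothelial cell cannot be told apart.

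With the high dose, 3 of the 8 genes were called higher and 4 lower (limma, Benjamini-Hochberg adjusted p under 0.05), where 35.7% of all 23744 probes tested were called higher and 21.4% lower. With the low dose 2 were higher and 4 lower, against 22.5% and 17.1% of all probes. With valsartan 2 were higher and 4 lower, against 33.2% and 25.2% of all probes. The median log2 difference over the 8 genes was -0.93, -1.20 and -1.20 for the high dose, the low dose and valsartan, and over all probes 0.25, 0.09 and 0.19. Scaling moves that last figure: with quantile normalisation it was -0.23, 0.01 and -0.30, so changes near those sizes cannot be placed on either side of 0.

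**Figure D1:**
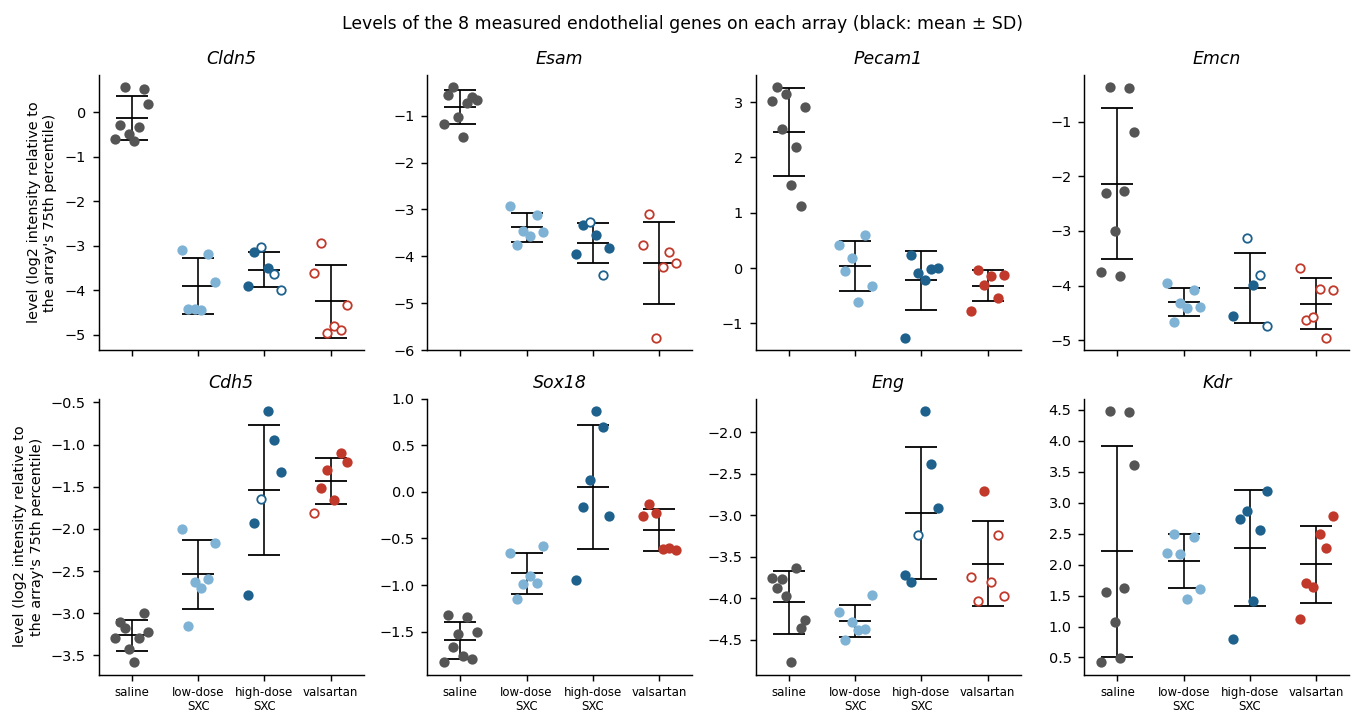
Level of each of the 8 measured genes (log2 intensity relative to the array's 75th percentile, y axis) on every array, by treatment group (x axis). Points are arrays, open where the probe was not well above background, and black marks are the group mean ± SD. Saline and treated points do not overlap for Cldn5, Esam, Pecam1 and Sox18, and Kdr overlaps throughout.

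Cldn5 codes for claudin-5, the main claudin of endothelial tight junctions. Its level on the saline arrays ran from -0.65 through a median of -0.30 to 0.57. On the low-dose arrays it ran from -4.45 through -4.12 to -3.10, on the high-dose arrays from -4.00 through -3.57 to -3.04, and on the valsartan arrays from -4.95 through -4.56 to -2.94. Every treated array lay below every saline array, by more than the whole spread within saline. The log2 difference from saline was -3.77 ± 0.31 (SE) with the low dose (adjusted p = 1.28e-09) and -3.40 ± 0.31 with the high dose (adjusted p = 2.86e-09), a 10.6-fold fall for the latter. With valsartan no array was well above background, so the fall is given as at least 7.98-fold (fitted difference -4.12, adjusted p = 1.19e-10). Such a bound sets the saline mean against the dimmest signal counted as well above background on each array, or against the probe's own signal where that is higher. With the high dose 3 of 6 arrays were well above background. After normexp background correction the log2 differences were smaller, at -2.77 with the low dose (adjusted p = 1.88e-10), -2.11 with the high dose (adjusted p = 7.33e-09) and -1.95 with valsartan (adjusted p = 2.05e-08), so the 10.6-fold value and the bound hold for the reported setting and not for that one.

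Esam codes for an immunoglobulin-like adhesion molecule that sits at endothelial tight junctions. Saline levels ran from -1.46 through -0.69 to -0.39. Low-dose levels ran from -3.75 through -3.47 to -2.92, high-dose levels from -4.41 through -3.68 to -3.27, and valsartan levels from -5.73 through -4.03 to -3.11. Treated and saline arrays did not overlap. The fall was -2.56 ± 0.28 with the low dose (adjusted p = 1.04e-07) and -2.89 ± 0.28 with the high dose (adjusted p = 6.52e-09), where 4 of 6 arrays were well above background. With valsartan no array was, and the fall was at least 4.93-fold (fitted difference -3.32, adjusted p = 6.53e-10). The falls after normexp background correction were -1.91 with the low dose (adjusted p = 8.29e-09), -1.66 with the high dose (adjusted p = 3.80e-08) and -1.42 with valsartan (adjusted p = 2.68e-07), the last of them below that bound.

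Pecam1 codes for CD31, an adhesion molecule of endothelial cell borders that platelets and white blood cells carry too. Its probe was well above background on all 26 arrays. Levels ran from 1.12 through 2.71 to 3.27 in saline, from -0.61 through 0.06 to 0.60 with the low dose, from -1.26 through -0.05 to 0.23 with the high dose, and from -0.77 through -0.23 to -0.03 with valsartan. The lowest saline array still lay above the highest treated array. The log2 differences were -2.42 ± 0.29 (adjusted p = 4.15e-07), -2.68 ± 0.29 (adjusted p = 3.84e-08) and -2.78 ± 0.29 (adjusted p = 1.96e-08) in the same order. Unlike Cldn5, the saline spread of Pecam1 did not follow the alike pairs of arrays: arrays 5, 6 and 7 lay 1.52, 1.08 and 1.40 below arrays 1, 2 and 3. The mean was 2.99 over arrays 1 to 4 and 1.93 over arrays 5 to 8, which were scanned at another time. In the treated groups, the red cell and macrophage lists were also low, with the values given above. The platelet list had a mean level of -3.84 to -1.43 in saline and -4.26 to -2.37 over the treated arrays. Of its genes, Pf4, the platelet factor gene, fell by 3.32 with the high dose (adjusted p = 3.70e-06). Ppbp had a fitted difference of -1.72 there (adjusted p = 0.0072). Gp9, Itgb3, Treml1 and Gp1bb differed by -0.51, -0.56, 0.23 and 0.08 with the high dose and were not called. With the low dose only Pf4 and Ppbp were called (-3.17 and -2.98). With valsartan Pf4, Gp9 and Itgb3 were called lower (-3.93, -1.20 and -1.30, adjusted p = 3.15e-07, 0.0076 and 0.0034). Ppbp (-1.13, adjusted p = 0.0687), Treml1 (-0.16) and Gp1bb (-0.22) were not called there. Ppbp failed the background criterion in every treated group, and Gp9, Itgb3 and Treml1 with valsartan, so their sizes there are uncertain. The part of platelets in the fall of Pecam1 was not tested.

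Cdh5 codes for VE-cadherin, the cadherin of endothelial adherens junctions. Its saline levels were close together, from -3.58 through -3.26 to -3.00. They ran from -3.15 through -2.61 to -2.00 with the low dose, from -2.78 through -1.48 to -0.60 with the high dose, and from -1.81 through -1.41 to -1.10 with valsartan. High-dose and valsartan arrays all lay above saline, and 1 low-dose array lay within the saline range. The rise was 0.72 ± 0.24 with the low dose (adjusted p = 0.0193), 1.72 ± 0.24 with the high dose (adjusted p = 1.56e-06) and 1.83 ± 0.24 with valsartan (adjusted p = 6.15e-07). In the last 2 groups 5 of 6 arrays were well above background.

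The rise of Cdh5 differed between the detector gains, which cannot be told apart from scan day or scan time. Treated arrays at the higher gain were scanned on days 1 and 2 and those at the lower gain on days 3 and 4. This limit holds for every split by gain below. Among high-dose arrays, the 2 at the higher gain had levels of -2.78 and -1.93, and the 4 at the lower gain had -1.65, -0.60, -0.95 and -1.32. Over arrays at the higher gain alone, the high-dose rise was 0.90 (adjusted p = 0.0112). With gain as a block, the valsartan rise was 0.60 and was not called (adjusted p = 0.301), a value that rests on the high-dose arrays, since no valsartan array was scanned at the higher gain. For the low dose, where gain did not differ from saline, the call was lost without low-dose array 1 (0.61, adjusted p = 0.0610), without low-dose array 6 (0.65, adjusted p = 0.0523) and with saline as 3 averages (0.70, adjusted p = 0.158).

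Sox18 codes for an endothelial transcription factor of the SOXF group, which takes part in arterial and lymphatic development. Saline levels ran from -1.83 through -1.59 to -1.33, and its probe was well above background on all 26 arrays. Levels ran from -1.15 through -0.94 to -0.58 with the low dose, from -0.95 through -0.02 to 0.87 with the high dose, and from -0.62 through -0.43 to -0.13 with valsartan. Every treated array lay above every saline array. The rise was 0.72 ± 0.20 (adjusted p = 0.0051), 1.65 ± 0.20 (adjusted p = 1.57e-07) and 1.18 ± 0.20 (adjusted p = 1.70e-05) in that order. With the high dose, the 2 higher-gain arrays had -0.95 and -0.16 and the 4 lower-gain arrays 0.13, 0.87, 0.69 and -0.25, and the rise over higher-gain arrays alone was 1.04 (adjusted p = 8.66e-04). The valsartan rise was 0.27 and not called with gain as a block (adjusted p = 0.640), and the low-dose rise was 0.74 and not called with saline as 3 averages (adjusted p = 0.0613).

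Kdr codes for VEGF receptor 2, through which VEGF drives endothelial growth. Its saline levels spread from 0.43 through 1.59 to 4.48, against 1.45 through 2.18 to 2.49 with the low dose, 0.81 through 2.64 to 3.19 with the high dose and 1.12 through 1.99 to 2.78 with valsartan. All treated arrays fell inside the saline range. The difference was -0.15 with the low dose (95% interval -1.30 to 1.00, adjusted p = 0.855), 0.05 with the high dose (-1.10 to 1.20, adjusted p = 0.944) and -0.21 with valsartan (-1.36 to 0.94, adjusted p = 0.765). The intervals reach past a 2-fold change on both sides except for the upper end with the low dose and valsartan, so these arrays do not show that Kdr was alike in the groups.

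Eng codes for endoglin, a co-receptor for BMP9 and TGF-beta that is strong in growing endothelium. Levels ran from -4.77 through -3.93 to -3.64 in saline, from -4.50 through -4.33 to -3.96 with the low dose, from -3.81 through -3.08 to -1.75 with the high dose, and from -4.04 through -3.78 to -2.71 with valsartan. High-dose arrays reached higher but overlapped saline. The difference was 1.08 ± 0.28 with the high dose (adjusted p = 0.002), -0.23 ± 0.28 with the low dose (adjusted p = 0.554) and 0.46 ± 0.28 with valsartan (adjusted p = 0.160), where 1 array was well above background. The high-dose call was lost with quantile normalisation (0.22, adjusted p = 0.669), in the authors' deposited table (0.23, adjusted p = 0.689) and over higher-gain arrays alone (0.29, adjusted p = 0.373). With normexp background correction the valsartan rise was called as well (1.17, adjusted p = 3.66e-05). The higher-gain high-dose arrays lay at -3.72 and -3.81 and the lower-gain ones at -3.24, -1.75, -2.39 and -2.92.

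Emcn codes for endomucin, a sialomucin of capillary and venous endothelium that keeps white blood cells from adhering. Saline levels spread from -3.82 through -2.29 to -0.37. They ran from -4.66 through -4.35 to -3.95 with the low dose, from -4.74 through -3.99 to -3.13 with the high dose (5 arrays, since the spot of array 2 was marked as an outlier), and from -4.96 through -4.33 to -3.67 with valsartan. Low-dose arrays all lay below saline, and the other treated groups overlapped it. The fall was -2.17 ± 0.45 with the low dose (adjusted p = 4.48e-04) and -1.91 ± 0.48 with the high dose (adjusted p = 0.0015), where 2 arrays were well above background. With valsartan no array was, and the fall was at least 1.99-fold (fitted difference -2.19, adjusted p = 2.19e-04). With normexp background correction the high-dose and valsartan falls were -0.59 (adjusted p = 0.163) and -0.44 (adjusted p = 0.273), and with gain as a block the valsartan fall was -2.84 and not called (adjusted p = 0.0735). Over higher-gain arrays alone the high-dose fall was -2.42 and not called (adjusted p = 0.0702).

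**Figure D2:**
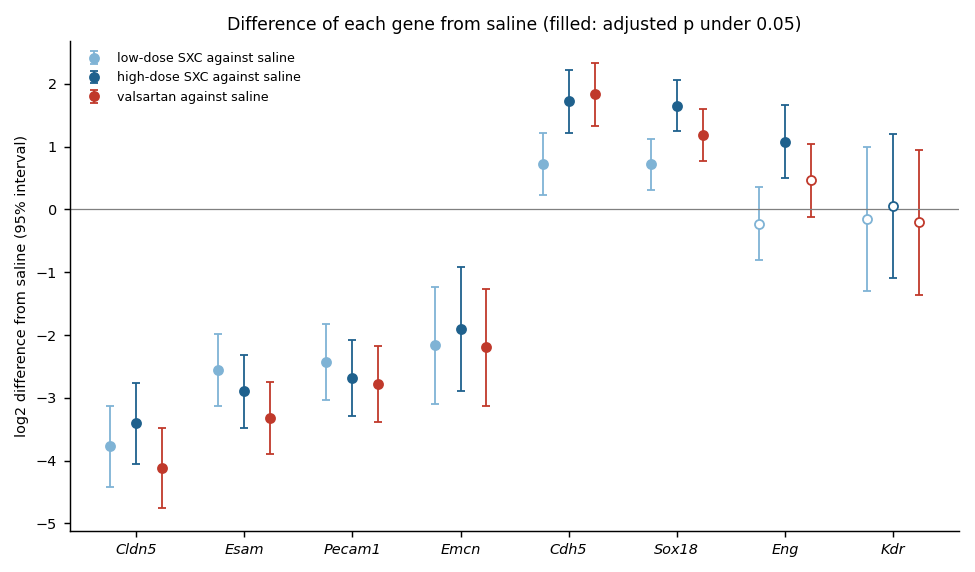
Log2 difference from saline (y axis) of each gene (x axis) for the low dose, the high dose and valsartan, with 95% intervals from limma over the 26 arrays. Filled points passed adjusted p under 0.05: Cldn5, Esam, Pecam1 and Emcn lie below 0 and Cdh5 and Sox18 above 0 in all 3 groups, with Eng above 0 at the high dose.

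Cdh5 and Sox18 went the other way from Cldn5, Esam, Pecam1 and Emcn within the same arrays. On each array, the change of a gene from its saline mean was set beside the median change of the 6 genes other than Cdh5 and Sox18. Those 6 also hold Kdr, which passed no test, and Eng, which was called higher with the high dose and whose deviations from the group means over the 26 arrays had r = 0.71 with those of Cdh5 and 0.67 with those of Sox18. The median of the 6 does not stand for Eng or Kdr. For Cdh5 this gap was -0.48 to 0.52 in saline, 2.57 to 3.54 with the low dose, 3.25 to 4.92 with the high dose and 3.69 to 5.07 with valsartan. For Sox18 it was -0.64 to 0.67, 2.52 to 3.47, 3.42 to 4.72 and 3.24 to 3.96. The gap exceeded the saline range on all 18 treated arrays for both genes. These gaps describe the arrays and were given no test, because the pair was singled out with earlier results of these data known. A gap between changes within an array is not moved by a shift of the whole array, but it shows unequal change and not which gene moved.

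**Figure D3:**
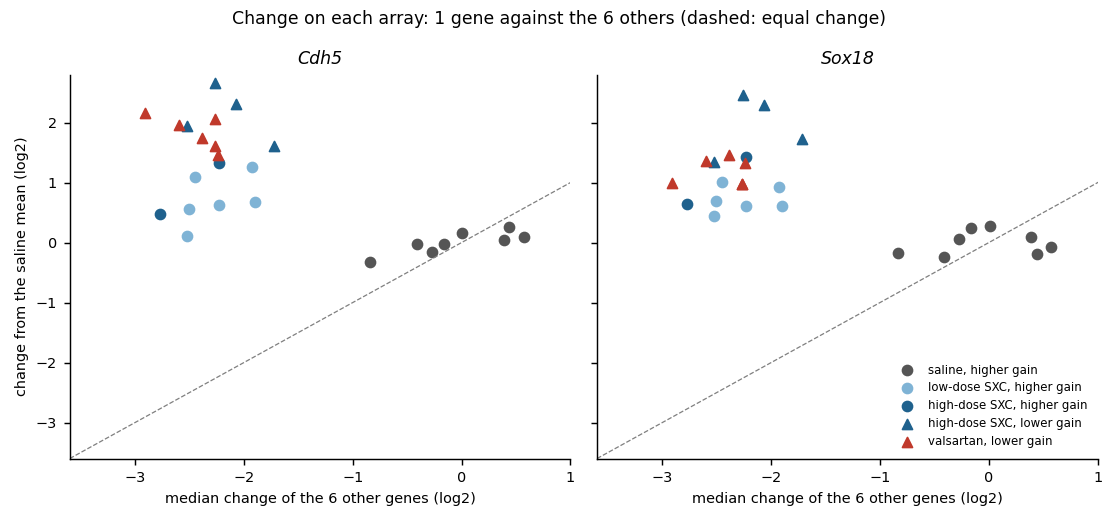
Change of Cdh5 (left) and Sox18 (right) from the saline mean (y axis, log2) against the median change of the 6 other genes on the same array (x axis, log2). Circles are arrays scanned at the higher gain and triangles at the lower gain, and the dashed line marks equal change. All 18 treated arrays lie far above the line, with gaps of 2.52 or more.

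Brightness differed between these genes, and the shift of all probes depended on it. Among probes ranked by saline level into 5 equal groups, the dimmest group had a median difference of 1.54 with the high dose, 0.41 with the low dose and 1.43 with valsartan. Eng lay in the second dimmest group, where these medians were 0.55, 0.06 and 0.24. Cdh5 lay in the middle group, with medians of -0.05, -0.11 and -0.26, and Sox18 in the next brighter one, with -0.22, -0.08 and -0.27. Cldn5 and Esam lay in the same group as Sox18, and Emcn in the same group as Cdh5. Cdh5 and Sox18 had already been called higher, so their lying above the medians of their brightness groups was fixed beforehand and is no test of brightness. In the group of Cdh5, 48.2% of probes lay above 0 with the high dose, 45.3% with the low dose and 40.6% with valsartan. In that of Sox18 the shares were 40.8%, 46.7% and 39.3%. The part of brightness in the rises was not tested.

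**Figure D4:**
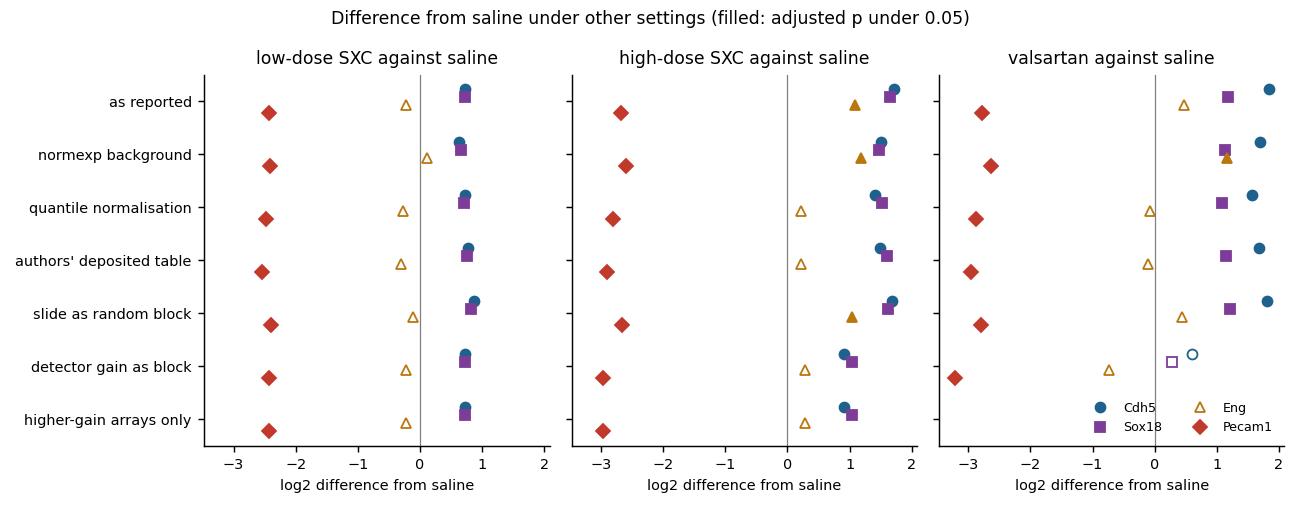
Log2 difference from saline (x axis) of Cdh5, Sox18, Eng and Pecam1 under the reported setting and 6 others (y axis), for the low dose, the high dose and valsartan. Filled points passed adjusted p under 0.05. Pecam1 stays at -2.40 or lower throughout, while with gain as a block Cdh5 and Sox18 fall to 0.60 and 0.27 with valsartan. No valsartan array was scanned at the higher gain, so the last line of that panel is empty.

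The doses of SXC were compared next. With the high dose against the low dose, 3 of 8 genes were higher and 0 lower, where 16.8% of all probes were called higher and 5.41% lower. Sox18 differed by 0.93 ± 0.21 (adjusted p = 0.0032), Eng by 1.31 ± 0.30 (adjusted p = 0.0033) and Cdh5 by 1.00 ± 0.26 (adjusted p = 0.0078). Only for Eng did the arrays of the doses not overlap. None of the 3 was called over higher-gain arrays alone, where 2 high-dose arrays remain: the differences were 0.32 for Sox18 (adjusted p = 0.625), 0.51 for Eng (adjusted p = 0.530) and 0.18 for Cdh5 (adjusted p = 0.889). The difference of Cdh5 was also not called with quantile normalisation (0.67, adjusted p = 0.0695) or with scan time as a random block (0.81, adjusted p = 0.0767), and it was 0.71 in the authors' deposited table (adjusted p = 0.0786). The difference of Eng was 0.49 with quantile normalisation (adjusted p = 0.450) and 0.53 in the authors' deposited table (adjusted p = 0.460), and was called in neither. With scan day as a block the differences were -0.28 for Cdh5, 0.07 for Sox18 and 0.30 for Eng, and none was called. These values rest on day 1, the only scan day both doses share, with low-dose arrays 1 and 6 and high-dose arrays 1 and 2. The genes that fell did not pass the test between the doses: the intervals were -0.32 to 1.05 for Cldn5, -0.96 to 0.28 for Esam and -0.90 to 0.39 for Pecam1. Esam was called lower with the high dose under quantile normalisation (-1.31, adjusted p = 0.0323), and Cldn5 higher under normexp background correction (0.66, adjusted p = 0.0205).

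Valsartan and SXC were set side by side in the same fit. Against the low dose, 1 of 8 genes was higher with valsartan and 0 lower, where 13.6% of all probes were called higher and 11.5% lower. The gene was Cdh5, at 1.11 ± 0.26 (adjusted p = 0.0033), and its arrays did not overlap, though all low-dose arrays were scanned at the higher gain and all valsartan arrays at the lower one. It was not called with gain as a block (-0.12, adjusted p = 0.988), with scan day as a block (-0.22, adjusted p = 0.989) or with scan time as a random block (0.93, adjusted p = 0.0598). Low-dose and valsartan arrays share no gain and no scan day, so the values with gain or scan day as a block rest on the high-dose arrays. Sox18 differed by 0.47 (95% interval 0.03 to 0.90, adjusted p = 0.109) and Eng by 0.69 (0.07 to 1.31, adjusted p = 0.0924). Esam differed by -0.77 (adjusted p = 0.0629), and was called lower under quantile normalisation (-1.23, adjusted p = 0.0278) and called higher under normexp background correction (0.50, adjusted p = 0.0299). Against the high dose, 0 of 8 genes were called by limma, 2 had an unadjusted p under 0.05, and 0.265% of all probes were called higher and 1.1% lower. The 2 were Cldn5 and Sox18, and Sox18 differed by -0.47 (interval -0.90 to -0.03, adjusted p = 0.259). It was called lower with valsartan without high-dose array 1 (-0.67, adjusted p = 0.0484). No valsartan array measured Cldn5, Esam or Emcn well above background, so their levels there bound a difference on 1 side only and no fold between treated groups is given.

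Within saline, the genes fell into kinds that the groups do not explain. Kdr lay at 4.48, 4.46 and 3.60 on arrays 3, 7 and 8, and at 0.43 to 1.62 on the other 5. Emcn was highest on the same 3 arrays, at -0.37, -0.38 and -1.20, against -3.82 to -2.27 on the others. Cldn5 was highest there as well, at 0.57, 0.52 and 0.20, against -0.65 to -0.29. The white fat list had its highest means on those arrays, 3.04, 2.99 and 2.38, and the red cell list its lowest on arrays 3 and 7, at 0.14 and 0.15. Cdh5 and Sox18 spanned 0.58 and 0.50 over the 8 arrays, where Kdr spanned 4.05 and Emcn 3.45. In the treated groups, where the white fat list was low, Emcn and Cldn5 were low on every array, while Kdr kept levels of 0.81 to 3.19. Saline arrays 1 and 5 had white fat means of -0.90 and -0.93, inside the treated range of -2.18 to -0.39. On them Cldn5 lay at -0.60 and -0.65, above every treated array, and Emcn at -3.75 and -3.82, within its treated range. The part of fat in these levels was not tested.

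**Figure D5:**
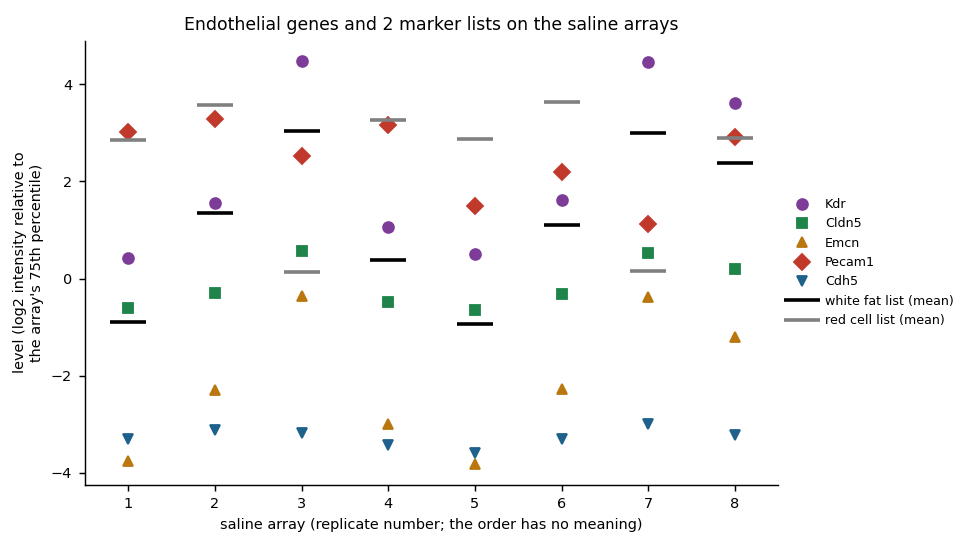
Levels of Kdr, Cldn5, Emcn, Pecam1 and Cdh5 and the mean level of the white fat and red cell marker lists (y axis, log2 intensity relative to the array's 75th percentile) on each of the 8 saline arrays (x axis). Kdr, Cldn5, Emcn and the white fat list are highest on arrays 3, 7 and 8, and Cdh5 stays between -3.58 and -3.00.

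Other junction genes were counted from a list of 19, of which 17 were tested. With the high dose 1 was higher and 7 lower (all probes: 35.7% and 21.4%), with the low dose 2 and 8 (all probes: 22.5% and 17.1%), and with valsartan 3 and 10 (all probes: 33.2% and 25.2%). The median differences were -0.36, -0.30 and -0.87. Gja5, a gap-junction connexin of arterial endothelium, had a mean level of 2.70 in saline and fell, with differences of -3.59 ± 0.20 with the high dose, -2.90 with the low dose and -3.47 with valsartan (adjusted p = 6.71e-12, 7.65e-11 and 1.80e-12). Jam2, a junctional adhesion molecule, fell as well (-1.48, -0.95 and -0.95), as did Cdh13, a cadherin without an intracellular tail (-0.82, -0.72 and -1.24). Gja1, a connexin shared with smooth muscle, rose by 0.99 (adjusted p = 1.85e-05), 0.81 and 0.71. Ocln, the occludin gene, and Tjp1, a scaffold of tight junctions, were called higher with valsartan (0.84 and 0.33, adjusted p = 0.015 and 0.027) and passed neither test for SXC. Both calls were lost with quantile normalisation (0.64 and 0.29, adjusted p = 0.0539 and 0.0568), in the authors' deposited table (0.67 and 0.30, adjusted p = 0.0603 and 0.0561) and with gain as a block (0.24 and 0.41, adjusted p = 0.833 and 0.269), and that of Tjp1 with normexp background correction as well (0.12, adjusted p = 0.367). The valsartan rise of Gja1 was not called with gain as a block (0.59, adjusted p = 0.237). With normexp background correction the valsartan count was 5 higher and 5 lower, and with quantile normalisation the high-dose count was 1 higher and 12 lower.

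Among 18 further transcription factor genes of endothelium, 17 were tested. The counts were 4 higher and 4 lower with the high dose (all probes: 35.7% and 21.4%), 5 and 4 with the low dose (all probes: 22.5% and 17.1%), and 4 and 7 with valsartan (all probes: 33.2% and 25.2%). The medians were -0.04, -0.15 and -0.39. Sox17 and Sox7, the other SOXF members, went the other way from Sox18. Sox17 fell, with differences of -2.83 ± 0.33 with the high dose (adjusted p = 1.06e-07), -2.22 with the low dose and -2.56 with valsartan. Sox7 fell too, at -1.56 ± 0.32 (adjusted p = 2.00e-04), -1.27 and -2.58 in that order. With gain as a block, the valsartan difference of Sox17 was -1.49 (adjusted p = 0.0912), and with quantile normalisation the low-dose difference of Sox7 was -1.20 (adjusted p = 0.165), and in the authors' deposited table it was -1.30 (adjusted p = 0.0858). Hey1, a target of Notch signalling, rose by 4.85 ± 0.35 (adjusted p = 6.23e-11), 2.60 and 4.73, the largest rise on this list in all 3 comparisons. Tal1, a factor of blood and endothelial lineages, rose by 1.40, 0.59 and 1.03, and Nr2f2, a factor of venous identity, by 0.38, 1.01 and 0.80. Several of these calls were lost under other settings. Tal1 was not called with the high dose in the authors' deposited table (0.71, adjusted p = 0.0930), with valsartan when gain was a block (0.54, adjusted p = 0.386), or with the low dose under quantile normalisation (0.50, adjusted p = 0.0860) and in the deposited table (0.55, adjusted p = 0.264). Nr2f2 was not called with the high dose when gain was a block (0.42, adjusted p = 0.122), under quantile normalisation (0.31, adjusted p = 0.0583) or in the authors' deposited table (0.31, adjusted p = 0.0701). Ets1 had differences of -0.92 (adjusted p = 0.008), -0.57 (adjusted p = 0.121) and -1.56 (at least 1.08-fold, adjusted p = 5.25e-05), and turned to 0.05 and 0.31 with normexp background correction for the high dose and valsartan. With gain as a block both Ets1 calls were lost too (-0.52, adjusted p = 0.373, and -0.95, adjusted p = 0.255).

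Around Kdr, the 9 genes of VEGF receptors and ligands were all tested. The counts were 2 higher and 3 lower with the high dose (all probes: 35.7% and 21.4%), 1 and 4 with the low dose (all probes: 22.5% and 17.1%), and 2 and 3 with valsartan (all probes: 33.2% and 25.2%). Nrp1, a co-receptor of Kdr, fell by 1.01 ± 0.23 with the high dose (adjusted p = 5.32e-04), fell by 1.00 with the low dose and fell by 1.35 with valsartan. The ligand gene Vegfa fell in the same groups, at -1.37 ± 0.38 (adjusted p = 0.0034), -1.49 and -1.30. Vegfb, another ligand gene, fell with the high dose (-0.85) and valsartan (-1.18), and differed by -0.45 with the low dose (adjusted p = 0.145). Vegfc, a ligand of lymphatic growth, rose by 0.63, 0.72 and 0.48, and Pgf, which codes for placental growth factor, rose by 0.54 with the high dose and 0.87 with valsartan and differed by 0.40 with the low dose (adjusted p = 0.0923). With normexp background correction the counts were 4 higher and 2 lower with the high dose and 5 and 2 with valsartan. There Nrp1 was not called (-0.29, adjusted p = 0.199, and -0.14, adjusted p = 0.521). With gain as a block, neither Vegfa (-1.48 and -1.45, adjusted p = 0.0541 and 0.202) nor Vegfb (-0.64 and -0.87, adjusted p = 0.186 and 0.229) was called with the high dose or valsartan, Vegfc was not called with valsartan (0.54, adjusted p = 0.232) and Pgf not with the high dose (0.67, adjusted p = 0.0734).

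Around Eng, 10 of 11 genes of BMP9 and endoglin signalling were tested. The counts were 4 higher and 3 lower with the high dose (all probes: 35.7% and 21.4%), 4 and 2 with the low dose (all probes: 22.5% and 17.1%), and 3 and 2 with valsartan (all probes: 33.2% and 25.2%). The receptor genes of this branch fell: Bmpr2 at -0.84 ± 0.14 (adjusted p = 1.22e-05), -0.76 and -0.94, and Acvrl1 at -0.81 ± 0.16 (adjusted p = 1.35e-04), -0.69 and -0.65. Smad5, a transducer of BMP signals, rose by 1.98 ± 0.26 (adjusted p = 6.68e-07), 1.32 and 1.05, while Smad1, its close relative, fell by 0.58 with the high dose (adjusted p = 0.0051) and differed by -0.36 (adjusted p = 0.0959) and -0.24 (adjusted p = 0.235) in the other groups. Tgfbr2, the type II receptor for TGF-beta, rose by 1.80 ± 0.29 with the high dose and 2.07 with valsartan and differed by 0.14 with the low dose (adjusted p = 0.741). With gain as a block its differences were 0.67 (adjusted p = 0.105) and 0.37 (adjusted p = 0.601), the groups that hold lower-gain arrays. The same block ended the valsartan calls of Smad5 (0.35, adjusted p = 0.706), Bmpr2 (-0.73, adjusted p = 0.0579) and Acvrl1 (-0.61, adjusted p = 0.198) and the high-dose call of Smad1 (-0.56, adjusted p = 0.101). Smad7, an inhibitory SMAD, rose by 1.33 and 1.13 with the high and the low dose and differed by 0.31 with valsartan (adjusted p = 0.222).

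Further surface and secreted proteins of endothelium were counted from a list of 30 genes, of which 24 were tested. In each of the 3 comparisons 17 were lower and 1 higher, and the median differences were -1.22, -1.17 and -1.23. Of all probes, 21.4%, 17.1% and 25.2% were called lower and 35.7%, 22.5% and 33.2% higher with the high dose, the low dose and valsartan. Icam2, an adhesion molecule that endothelium carries at all times, fell by 2.70 ± 0.33 with the high dose (adjusted p = 1.88e-07), fell by 3.69 with the low dose, and was at least 1.96-fold lower with valsartan. Its probe was well above background on 15 of 26 arrays. Cd93 fell in all 3, at -1.73 ± 0.20 (adjusted p = 1.20e-07), -1.58 and -1.92, and so did F8, the gene of coagulation factor VIII, at -0.93 ± 0.12 (adjusted p = 7.01e-07), -0.76 and -1.08. Sele, E-selectin, which endothelium makes when activated, was called higher with the high dose (1.13, adjusted p = 0.0307) and valsartan (1.27, adjusted p = 0.0152), from a probe well above background on 8 of 26 arrays. Its sign turned with quantile normalisation, to -0.14 and -0.0048, and in the authors' deposited table, to -0.12 and -0.03. With gain as a block it was 0.32 and 0.07, and not called. With normexp background correction 14 and 11 of the 24 were lower with the high dose and valsartan, and 4 and 5 higher.

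The genes whose pattern over the 26 arrays was nearest to a member were found by the root mean square difference of levels, each centred on its own mean. Nearest to Cldn5 among 8452 genes were Mnda, Enc1 and Glul, at 0.68, 0.75 and 0.77. Nearest to Pecam1 among 8451 genes were Plac8, Fcer1g and Rbm38, at 0.45, 0.52 and 0.54. Nearest to Cdh5 were Higd2a, Bex2 and Pde7b at 0.26, 0.30 and 0.30, and nearest to Sox18 were Tal1, Krtap10-10l2 and Fcgbpl1 at 0.20, 0.20 and 0.21. The levels were not scaled, so this distance grows with a gene's own spread and does not rank how closely the members were matched. Tal1 lay 0.68 below its own mean in saline, 0.09 below it with the low dose, 0.71 above it with the high dose and 0.35 above it with valsartan. Its probe was well above background on 21 of 26 arrays. The other 2 genes had a like shape, at -0.88, -0.02, 0.92 and 0.285 for Krtap10-10l2 and -0.72, -0.25, 0.94 and 0.26 for Fcgbpl1 in the same order.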

How the data were processed

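Per the labels' protocols, total RNA of each thoracic aorta was extracted with TRIzol, amplified, labelled with Cy3 and hybridised to 1-colour Agilent rat arrays, 26 in all. Per the file headers, the authors quantified the scans with Agilent Feature Extraction 11.0.1.1 and deposited spot intensity values, of which the processed signal is background-subtracted, and spot flags of 0 or 1. The authors' deposited table holds log2 values, median 5.75 to 5.76 per array, and the sources used here do not say how it was normalised. It served as an alternative. Each of its columns matched its own array best, and its scale and direction follow the scanner values.

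Here, control and outlier spots were left out, spots of a probe were averaged, and each array's 75th percentile over spots was subtracted on the log2 scale. Of 30367 probes, 23744 that were well above background on at least 6 arrays were tested with limma 3.58.1 in R 4.3.3 (lmFit, eBayes with trend, 2-sided) in 1 fit of the 4 groups without covariates. Benjamini-Hochberg adjusted p under 0.05 over all tested probes was a call, and all adjusted p-values are limma's. The scripts were tested on simulated data. Probes were named through RefSeq accessions of the GRCr8 gene table (18005 probes with 1 symbol, 0 with several, 12362 with none). Probe coordinates are left out, since the files carry the rn4 build, per the file headers. Software also included matplotlib 3.10.9 and data.table (version 1.17.8). Precision is limited by the number of arrays.

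The members, lists and markers were chosen with earlier results of these data known. The rule for named genes takes all members, up to 3 genes per direction and list with the smallest adjusted p over the high-dose and valsartan fits, and the 3 genes nearest in pattern to Cldn5, Pecam1, Cdh5 and Sox18 that were well above background on at least 20 arrays. Platelet factor Pf4 was named after its value was seen, and the other tested platelet genes were named beside it. Alternatives were background correction, normalisation, the filter, scan time, scan day, gain, replicate number, left-out arrays and saline as 3 averages. The planned normexp correction (offset 50) used the median spot signal in place of the mean. The labels' replicate numbers did not pair samples: of 36 same-numbered pairs from different groups, 6 had deviations correlated over 0.1 (r from -0.37 to 0.28). No member had more than 1 probe, so no other probe of a member was tried.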

Additional observations from a re-analysis of the deposited data

Results flagged for a closer look

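The level of Pecam1 on high-dose SXC array 1, -1.26, stood apart from the other 5 high-dose arrays, the nearest of which lay at -0.22. The gap between them was larger, as a share of the group's range, than Dixon's critical value for 6 samples. This was 1 array in 32 sets of values checked (8 genes in 4 groups), and chance alone marks about 1 set in 20. Without that array the high-dose fall of Pecam1 kept its direction and its call.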

How the results depend on the processing

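Of the 4 genes that fell and the 2 that rose against saline, none changed direction under any alternative run, and Cldn5, Esam and Pecam1 kept every call against saline in which they were tested. The counts of genes called against saline were the same with the replicate block as reported (7 for the high dose, 6 for the low dose and 6 for valsartan), and the block changed no call between treated groups (3, 1 and 0), but the replicate numbers share no more than a number. Testing only probes well above background on all arrays left 3 of the 8 genes, and the counts fell to 2, 2 and 2 against saline, 1 between doses and 0 for valsartan against the low dose. With detector gain as a block, 3 genes were called for valsartan against saline, 0 between the doses, 0 for valsartan against the low dose and 2 for valsartan against the high dose (Sox18 at -0.77 and Eng at -1.01). The doses gave 0 calls with scan day as a block and over higher-gain arrays alone, where the comparison rests on high-dose arrays 1 and 2. Valsartan against the low dose, reported with 1 call, gave 5 with normexp background correction, 2 each with quantile normalisation, the authors' deposited table, no filter, the percentile taken over probes and without the 2 dimmest arrays (high-dose array 3 and valsartan array 1; the last 2 settings were chosen after seeing the data), and 0 with scan time as a random block or scan day as a block. Leaving out 1 array at a time gave 7 for the high dose, 5 to 6 for the low dose, 6 for valsartan, 3 between doses, 1 to 2 for valsartan against the low dose (2 without valsartan array 2) and 0 to 1 for valsartan against the high dose (1 without high-dose array 1). Among differences called either as reported or under the alternative, the sign turned for those of Cldn5 and Esam between valsartan and the low dose with normexp correction (0.82 and 0.50), of Cdh5 in the same comparison with gain as a block (-0.12) and scan day as a block (-0.22), and of Cdh5 between the doses with scan day as a block (-0.28). Differences called in neither setting also changed sign: 7 with normexp correction, 5 with quantile normalisation, 5 in the authors' deposited table, 7 with gain as a block and 5 with scan day as a block, among them that of Eng for valsartan against saline (-0.73 with gain as a block and -0.08 with quantile normalisation) and that of Sox18 for valsartan against the low dose (-0.45 with gain as a block). The cause was not tested. Signal over background limits Cldn5, Esam and Emcn with valsartan, where only a bound can be given.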
